A study of Mus musculus with 54 samples.

Results

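The immediate early genes Arc, Fos, Fosb, Junb, Egr1, Egr2, Egr4, Npas4, Nr4a1 and Dusp1 are 10 of the 54232 genes counted in the series, and all 10 were found by the symbol of their Ensembl identifier. They are activity-regulated genes of neurons, and they were chosen with results of these libraries known: Arc was seen to be lower in Cmpd60-treated brains of the APPSWE line, so the values of that cohort's transgenic mice are given as a description, with no test. Cmpd60 inhibits HDAC1 and HDAC2, enzymes that remove acetyl groups from histones. The study injected male BL6 mice intraperitoneally each day for 14 days with Cmpd60 at 22.5 mg/kg or with its vehicle, and sequenced mRNA of brain, kidney or heart in 54 libraries. Which part of a brain was taken is not given in the sources used here. The vehicle was a mixture of DMSO, PEG400 and saline, and all mice ate regular chow.

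The 34 libraries of naturally aged mice, about 20 months old and without a transgene, were brain (6 Cmpd60, 6 vehicle), kidney (6 Cmpd60, 5 vehicle) and heart (5 Cmpd60, 6 vehicle). The other 20 were brains of mice 6 to 7 months old. Of these, 10 came from APPSWE-1349 mice, which carry a transgene for a human amyloid precursor protein isoform with the Swedish mutation, and 10 from control littermates without it (5 Cmpd60, 5 vehicle). A mouse of this cohort is named by the number in its label (s139 to s158). The promoter of the transgene is not given in the sources used here. Before CO2 euthanasia this cohort was fasted overnight. Per the study's methods there were fewer aged mice than aged libraries, so tissues came from the same mice, but the labels do not link them and each library entered the fits as a separate mouse. All mice in both cohorts were single housed and received injections, the controls of vehicle. The transgenic libraries were 4 Cmpd60, 5 vehicle and mouse s139, which every sample label calls vehicle and a column heading of the study calls Cmpd60. Mouse s139 was left out of the fit of its cohort, and its values are given apart. The kidney groups follow title and source name, since the treatment field of those samples gives the opposite. If that field were right, every direction of a Cmpd60 effect given for kidney would turn.

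Immediate early genes are transcribed within minutes of synaptic activity, by transcription factors such as CREB and SRF that already sit in the cell, so that no new protein is needed. Fos, Fosb, Junb, Egr1, Egr2, Egr4, Npas4 and Nr4a1 encode transcription factors that switch on a later wave of genes. Arc encodes a protein that acts at the synapse, and Dusp1 a phosphatase that switches MAP kinases off. Their mRNAs are short-lived, and several are also induced by growth factors and stress in other tissues.

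Sequences before the transcription start of 8 of the 10 genes were taken from RefSeq (GRCm38.p6), as the 250 bases before each start. No window was listed for Arc and Egr1. All 8 held TGACG on 1 strand or the other, the core of the cyclic AMP response element to which CREB binds, in at least 1 of the listed windows. Among 32851 windows of the same length in the mouse table, 17.8% held it. The full palindrome TGACGTCA, which contains the core on both strands, was in 1 of the 8, Dusp1, against 1.55% of all windows. The CArG box, the site of SRF, was in 4 of the 5 listed windows of Egr2, against 1.47% of all windows. It was in none of the other genes' windows. The Egr2 windows starting at 67537619, 67537620 and 67537680 overlap and hold the same site, so they are not separate matches. The AP-1 site TGANTCA, bound by Fos and Jun proteins (6.75% of all windows), and GCGTGGGCG, bound by Egr proteins (0.536%), were in none of the 8. Both strands were searched, and the windows of the 7 genes with 1 listed start had a GC content from 58.4% to 74.4%, against a median of 52.4% over all windows. These matches describe the letters in the windows only, and sites farther upstream or elsewhere in the genes were not searched. Shown are Fosb and Junb, the genes with the lowest p-values in the aged brain, Fos, their close relative, and Dusp1, whose Cmpd60 effect had the lowest p between brain and kidney. Capitals mark TGACG on either strand.
Fosb chr7:19310046-19310295, minus strand: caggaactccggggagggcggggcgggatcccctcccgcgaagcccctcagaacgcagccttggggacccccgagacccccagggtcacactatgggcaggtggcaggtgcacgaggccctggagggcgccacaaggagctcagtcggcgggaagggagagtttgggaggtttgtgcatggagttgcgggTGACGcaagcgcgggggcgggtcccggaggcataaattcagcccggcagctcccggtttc
Junb chr8:84978749-84978998, minus strand: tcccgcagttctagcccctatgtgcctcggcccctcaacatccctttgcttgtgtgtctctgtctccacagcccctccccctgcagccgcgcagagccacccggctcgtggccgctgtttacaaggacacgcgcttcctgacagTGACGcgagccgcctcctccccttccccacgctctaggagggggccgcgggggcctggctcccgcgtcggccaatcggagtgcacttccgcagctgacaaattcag
Fos chr12:85473640-85473889, plus strand: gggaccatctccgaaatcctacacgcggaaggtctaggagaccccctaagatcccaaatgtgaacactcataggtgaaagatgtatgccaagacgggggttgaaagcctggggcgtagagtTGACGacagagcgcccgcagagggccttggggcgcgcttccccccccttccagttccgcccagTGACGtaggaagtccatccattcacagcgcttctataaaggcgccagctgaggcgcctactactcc
Dusp1 chr17:26508473-26508722, minus strand: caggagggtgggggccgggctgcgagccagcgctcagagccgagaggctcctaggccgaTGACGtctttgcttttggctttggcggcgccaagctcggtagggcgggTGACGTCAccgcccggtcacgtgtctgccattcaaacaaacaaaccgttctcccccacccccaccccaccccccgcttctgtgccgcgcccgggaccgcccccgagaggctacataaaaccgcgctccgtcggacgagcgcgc

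Libraries held from 23584609 to 57430113 gene counts. The aged Cmpd60 brains were sequenced more deeply than the aged vehicle brains (medians 38855600 and 28188600 counts) and had more genes detected (25850 to 28017 against 24939 to 25861). In the cohort of 6 to 7 months the number of genes detected spread from 15044 to 24821. Mice s140, s141, s146, s152 and s155 had fewer than 17000, with at least 1 such library in each of the 4 groups. Values without these 5 are given where they differ. Those refits lack s140 and s146 of APPSWE vehicle, s141 of APPSWE Cmpd60, s152 of littermate Cmpd60 and s155 of littermate vehicle. Their groups are smaller than those given above. App, the mouse gene for the precursor protein, differed between transgenic and littermate vehicle brains by log2 0.06 (SE 0.06), so the mouse gene's count does not check the genotype. Markers fitted the labelled tissues: the summed level of 8 neuron markers was 5237 to 6628 CPM in aged brain and at most 24.3 elsewhere, that of 6 heart markers 61838 to 73481 in heart and at most 274 elsewhere, and that of 6 kidney markers 6414 to 13926 in kidney and at most 8.65 elsewhere. Levels below are CPM, the gene's reads relative to the library's total, after TMM scaling within a tissue or cohort, and n is the number of mice. In bulk tissue, fewer cells of a type and less RNA per cell cannot be told apart.

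Most of the 10 genes stood at higher levels in brain than in kidney or heart. Over the 34 libraries of aged mice scaled together, vehicle brains had Arc at 74.3 CPM ± 17.2 (SD, n = 6), kidneys at 4.05 ± 0.853 (n = 5) and hearts at 3.62 ± 0.726 (n = 6), and no brain library overlapped the others. By edgeR's quasi-likelihood test with Benjamini-Hochberg adjustment, 8 of the 9 genes tested differed between vehicle brain and kidney, as did 72.5% of all genes, and 9 of 9 between vehicle brain and heart, as did 72.1%. The median over all genes was itself higher in brain, by log2 0.24 against kidney and 0.44 against heart. Against so high a background, the counts say little about the 10 genes as a group.

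The sizes ranged widely. Npas4, a transcription factor found mainly in neurons, was 84.9-fold higher in brain than in kidney and 37.5-fold higher than in heart. Vehicle kidneys held 11 Npas4 counts in all and vehicle hearts 23, so the size of these folds is uncertain. Fosb was 19.1-fold and 10.3-fold higher, Arc 18.2-fold and 20.4-fold, Egr1 13.6-fold and 6.40-fold, Nr4a1 8.72-fold and 2.62-fold, and Fos 8.64-fold and 3.96-fold. Egr4 had 0 counts in all 22 kidney and heart libraries. Its level in vehicle brain was 15.7 CPM. A floor of 3 counts over all 11 libraries of a tissue was 0.0091 CPM in kidney and in heart. That floor is before TMM scaling and the brain level after it, so no fold is given.

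Junb, Egr2 and Dusp1 differed less between tissues. Junb was 1.45-fold higher in brain than in kidney (adjusted p = 0.0152, edgeR quasi-likelihood test) and 1.79-fold higher than in heart (adjusted p = 0.000172). Egr2 did not pass the test against kidney (1.63-fold higher in brain, adjusted p = 0.109) and was 2.32-fold higher in brain than in heart (adjusted p = 0.00675). Dusp1 alone was lower in brain, by 0.44 on the log2 scale against kidney (SE 0.15, adjusted p = 0.00829) and by 1.05 against heart (SE 0.14, adjusted p = 3.28e-08), both from the edgeR test. Its level was 21.9 CPM ± 2.33 in vehicle brain, 29.7 ± 6.35 in kidney and 45.5 ± 3.23 in heart.

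**Figure D1:**
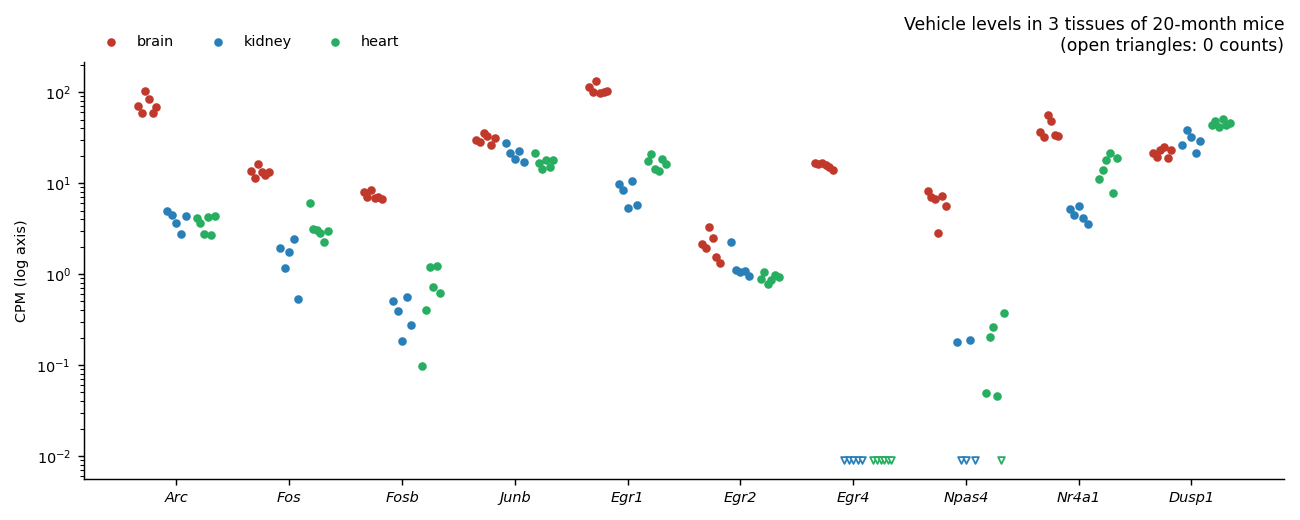
Levels of the 10 genes in vehicle-treated brain (6 mice), kidney (5) and heart (6) at 20 months, in CPM on a log axis scaled over the 34 aged libraries; each point is 1 library and open triangles are libraries with 0 counts. Egr4 was at 0 counts in every kidney and heart, and Dusp1 was lowest in brain.

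In the aged brain, the fitted level of all 10 genes was higher with Cmpd60 than with vehicle, and no gene passed the adjusted threshold. Over all 24438 genes tested, 51.8% were higher with Cmpd60. For the 10, the median log2 fold change was 0.31 and the range 0.08 to 0.41, against a median of 0.01 over all genes. At an adjusted p below 0.05, 0 of the 10 were called, against 0.0205% of all genes (5 genes). At an unadjusted p below 0.01, 2 of the 10 were called (Fosb and Junb) against 4.29% of all, and at a p below 0.05, 6 of the 10 against 13.8%. With the number of genes detected, which differed between the groups, as a covariate, 4 of the 10 had a p below 0.01 (1.98% of all genes). These were Arc, Junb, Egr1 and Nr4a1, and Fosb was no longer among them (log2 0.27, edgeR adjusted p = 0.616). The adjusted p of those 4 in the same edgeR fit ran from 0.319 (Junb) to 0.482 (Nr4a1). The fitted difference of Arc was then 0.68, that of Egr1 0.52 and that of Junb 0.61. Only Cmpd60 replicate 34 (25850 genes detected) fell below the highest vehicle brain (25861), so this fit separates covariate and treatment poorly. Without a filter on low counts 5 of the 10 had a p below 0.01 (3.70% of all genes). The treated and untreated groups overlapped for all 10, while 0.925% of all genes had groups that did not overlap. Since the genes rise and fall together from mouse to mouse, as shown further on, these counts are not 10 separate results.

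Fosb, whose protein pairs with Jun proteins to form AP-1, had the lowest p. Its level was lowest 9.16, median 11.03 and highest 11.8 CPM in the 6 Cmpd60 brains, and 8.04, 8.34 and 10.1 CPM in the 6 vehicle brains. Of the Cmpd60 brains, 5 lay above every vehicle brain. Vehicle replicates 29 (10.1 CPM) and 27 (9.47 CPM) lay above the lowest Cmpd60 brain, replicate 36. The difference was 1.24-fold (log2 0.32, SE 0.08, edgeR quasi-likelihood adjusted p = 0.132). Counts per gene do not separate the full-length transcript of Fosb from its shorter spliced form.

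Junb, another AP-1 subunit, ran from 37.1 CPM through a median of 47.2 to 62.4 CPM with Cmpd60, and from 31.8 through 36.4 to 42.7 CPM with vehicle. The highest levels were those of Cmpd60 replicates 34 and 33, and 3 of the 6 treated brains lay above every vehicle brain. The difference was 1.33-fold (log2 0.41, SE 0.12, edgeR adjusted p = 0.153). By DESeq2, Fosb and Junb passed the adjusted threshold (adjusted p = 0.0258 and 0.0475), while limma-voom gave 0.145 and 0.187. Without vehicle replicate 29, Fosb passed it in edgeR (adjusted p = 0.0438), and 5 of the 10 genes had a p below 0.01 in place of 2, while the share of all genes rose to 7.07%. Without Cmpd60 replicate 38 it was also 5 of the 10, against 3.95% of all genes.

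Nr4a1, an orphan nuclear receptor, had the largest difference, 1.33-fold (log2 0.41, SE 0.15, edgeR adjusted p = 0.242). It ran from 50.6 CPM through a median of 59.0 to 87.1 CPM with Cmpd60, and from 37.9 through 41.7 to 68.0 CPM with vehicle. Vehicle replicates 29 and 30 lay among the treated brains, and the other vehicle brains lay below all of them. Arc was 79.9 CPM at its lowest, 106.6 at the median and 160.3 at its highest with Cmpd60, and 70.0, 82.4 and 126 CPM with vehicle. Only Cmpd60 replicates 33 and 34 lay above every vehicle brain. The difference in Arc was 1.32-fold (log2 0.40, SE 0.17, edgeR adjusted p = 0.304).

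Egr1, a zinc finger factor linked to lasting synaptic change, was 1.25-fold higher (log2 0.32, SE 0.13, edgeR adjusted p = 0.294). Its highest treated values, 216 and 212 CPM in replicates 33 and 34, stood well above the other 4 treated brains, which spanned 115 to 147.5 CPM within or beside the vehicle range of 117 to 161. Egr4, its relative, was 1.12-fold higher (log2 0.17, SE 0.08, edgeR adjusted p = 0.358), at 21.1 CPM ± 2.67 (SD, n = 6) with Cmpd60 and 18.7 ± 1.19 (n = 6) with vehicle. Egr2 (2.83 CPM ± 0.722 and 2.53 ± 0.849), Npas4 (9.22 ± 3.40 and 7.46 ± 2.24) and Dusp1 (28.7 ± 4.99 and 26.1 ± 2.82) had edgeR adjusted p from 0.582 to 0.793. As for Arc, Cmpd60 replicates 33 and 34 lay above every vehicle brain for Npas4 (14.3 and 12.4 CPM) and Dusp1 (32.9 and 36.6 CPM), and the other treated brains did not. Fos, the gene most often used to mark active neurons, differed least, by log2 0.08 (SE 0.14, edgeR adjusted p = 0.857). Cmpd60 brains held both the highest Fos levels (23.6 and 20.2 CPM, replicates 34 and 33) and the lowest (11.1 and 13.3 CPM, replicates 37 and 35), and without replicate 34 its difference was −0.0365.

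**Figure D2:**
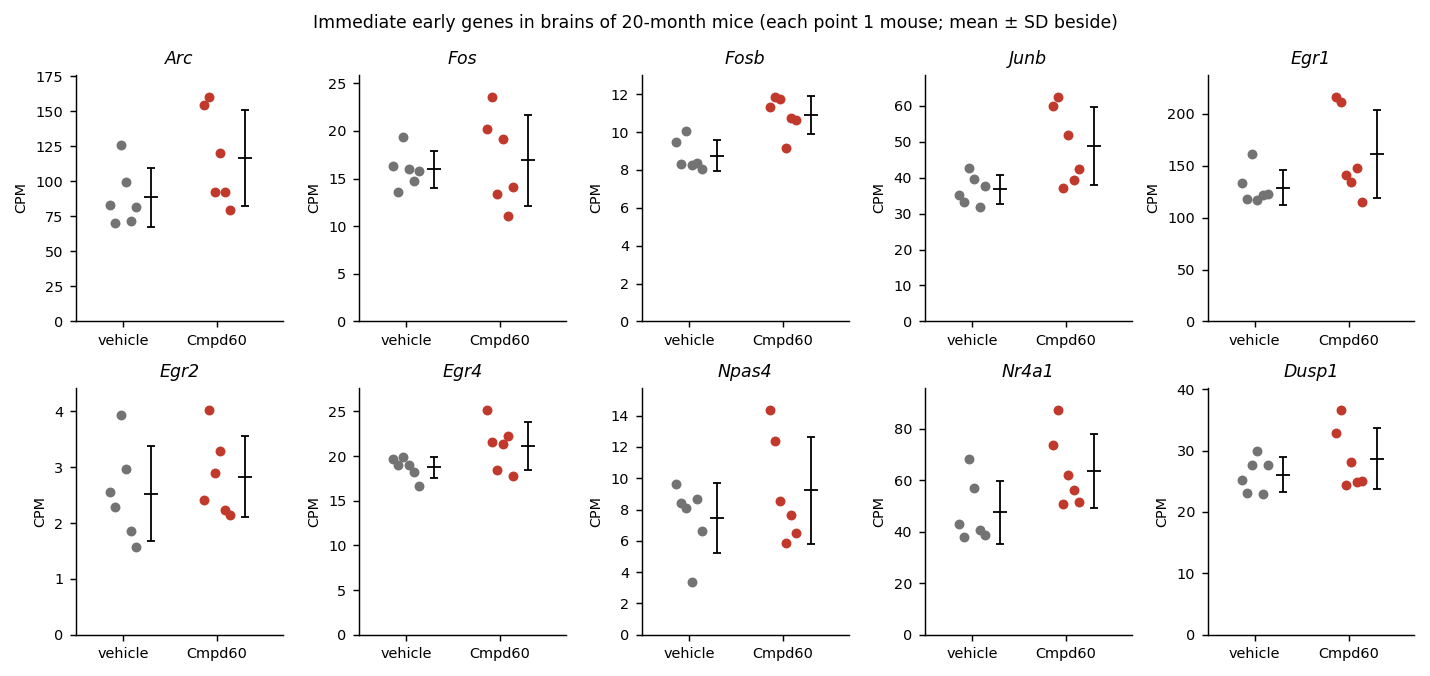
Levels of the 10 genes in brains of 20-month mice, in CPM from an axis start of 0; each point is 1 mouse (6 vehicle, 6 Cmpd60) and the bar beside the points is the mean ± SD. Vehicle and Cmpd60 points overlap in every panel, most narrowly for Fosb, where 5 Cmpd60 brains lie above all vehicle brains.

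Markers of brain regions differed with treatment in the same 12 brains. All 8 markers of cerebellum were lower with Cmpd60 (median log2 −0.44, 2 at p below 0.01), and their summed level was 416 to 979 CPM with Cmpd60 and 784 to 1230 CPM with vehicle. Of 8 markers of thalamus and brainstem, 7 were lower (median −0.25, 2 at p below 0.01; summed level 352 to 459 against 421 to 579 CPM), and of 10 markers of cortex and hippocampus, 8 were higher (median 0.22, 2 at p below 0.01; summed level 1464 to 1977 against 1363 to 1527 CPM). Endothelial markers were higher in 4 of 5 (median 0.31, 3 at p below 0.01; 205 to 297 against 181 to 215 CPM). Choroid plexus markers were split 3 and 3 (median 0.09), with a summed level of 228 to 954 CPM with Cmpd60 and 552 to 776 CPM with vehicle, and the 8 general neuron markers were split 4 and 4 (median 0.02, 1 at p below 0.01 each way). None of these markers passed the adjusted threshold, and none of the marker genes was at 0 in either group. The part of tissue sampling in the levels of the 10 genes was not tested.

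Related lists had smaller median differences, while their shares at p below 0.01 are to be read against the 4.29% of all genes. Of 22 other early response genes, 15 were higher with Cmpd60 in the aged brain (median log2 0.14) and 3 had a p below 0.01: Plk2, a kinase that weakens overactive synapses (0.35, SE 0.08, adjusted p = 0.0956), Nr4a2, a relative of Nr4a1 (0.44, SE 0.11, adjusted p = 0.115), and Klf4 (0.42, SE 0.13, adjusted p = 0.189), all by edgeR's quasi-likelihood test. Of 22 upstream signalling genes, 15 were higher (median 0.05) and 4 had a p below 0.01, namely Camk2a (0.39, SE 0.09), Mapk3 (0.22, SE 0.06), the CREB coactivator Crtc1 (0.16, SE 0.05) and Mef2d (0.16, SE 0.05). Of 15 partners and inhibitors, 13 were higher (median 0.13), with Gria2, an AMPA receptor subunit, at 0.29 (SE 0.08) and Rxra, a partner of Nr4a1, at 0.15 (SE 0.05) among the 3 at p below 0.01. The third, Dnm2 (0.16, SE 0.05), is named here after its value was seen. Of 16 later activity-regulated genes, 9 were higher (median 0.02), and Ptgs2 was at 0.37 (SE 0.12). None of these genes passed the adjusted threshold.

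Heat shock genes (5 of 8 higher, median log2 0.03) and glucocorticoid-responsive genes (7 of 9 higher, median 0.05), which respond to handling and stress, stood near the median of all genes, and 1 of these 17 genes had a p below 0.01. That gene, named after its value was seen, was Pdk4 (0.22, SE 0.07).

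In the aged kidney, 9 of the 10 genes passed the filter on low counts and 7 of the 9 were higher with Cmpd60, as were 50% of all genes. None was called at an adjusted p below 0.05 (0.3% of all 20698 genes were), none had a p below 0.01 (3.78% of all), 2 had a p below 0.05 (11.3% of all), and none had groups that did not overlap (2.3% of all). Without Cmpd60 replicate 52 or vehicle replicate 48, Dusp1 had a p below 0.01, and without Cmpd60 replicate 55, Arc did. Arc measured 6.14, 5.17, 5.72, 8.10, 6.17 and 4.09 CPM in Cmpd60 kidneys 50 to 55 and 5.22, 4.75, 3.89, 2.92 and 4.64 CPM in vehicle kidneys 45 to 49. Of the treated kidneys, 4 of 6 lay above every vehicle kidney (log2 0.46, SE 0.20, edgeR adjusted p = 0.4). Dusp1 went the other way. It was lowest 15.2, median 21.9 and highest 32.3 CPM in the 6 Cmpd60 kidneys, and 27.7, 40.7, 34.4, 23.03 and 30.997 CPM in vehicle kidneys 45 to 49. Of the treated kidneys, 4 lay below every vehicle kidney, 1 of them narrowly (replicate 53, 23.01 CPM), and the difference was log2 −0.48 (SE 0.18, edgeR adjusted p = 0.334). DESeq2 and limma-voom called 0 of the 9 at an adjusted p below 0.05 as well. Fosb and Npas4 were near the floor in kidney, at or below 0.593 and 0.227 CPM.

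In the aged heart, 5 of 9 genes were higher with Cmpd60 (49.6% of all genes were). Among the others, Fosb and Npas4 were low in heart, at or below 1.12 and 0.287 CPM. None of the 9 was called at an adjusted p below 0.05, against 1.18% of all 19452 genes, and 1 had a p below 0.01, against 5.34%. That gene was Junb, at 24.4, 34.0, 18.2, 14.3 and 20.6 CPM in Cmpd60 hearts 68 to 72, and at 17.7, 13.2, 11.2, 14.1, 12.5 and 13.8 CPM in vehicle hearts 62 to 67. Of the 5 treated hearts, 4 lay above every vehicle heart, and replicate 71 lay within the vehicle range. None of the 9 had groups that did not overlap, against 2.69% of all. The difference in Junb was 1.62-fold (log2 0.70, SE 0.17, edgeR adjusted p = 0.0619). It passed the adjusted threshold by DESeq2 (adjusted p = 0.00417), without a filter on low counts (0.0238), and without Cmpd60 replicate 71 or vehicle replicate 62.

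Its AP-1 partner Fos was at log2 0.45 (SE 0.26) in heart and Egr2 at 0.50 (SE 0.30), and neither passed the test (edgeR adjusted p = 0.492 and 0.509). Among other early response genes in heart, Sik1, a kinase that restrains CREB coactivators, rose from 28.6 CPM ± 3.14 (SD, n = 6) to 40.8 ± 8.58 (n = 5; log2 0.51, SE 0.11, edgeR adjusted p = 0.042). Egr3 was at 1.01 (SE 0.28, adjusted p = 0.0929), Ier2 at 0.44 (SE 0.12, adjusted p = 0.0986) and the Egr corepressor Nab2 at 0.47 (SE 0.13, adjusted p = 0.0824) in the same edgeR test. Hsph1, a heat shock chaperone, fell from 68.3 CPM ± 2.34 (n = 6) to 43.3 ± 14.3 (n = 5; log2 −0.66, SE 0.15, edgeR adjusted p = 0.0437), and Sgk1, a target of glucocorticoids, was at 0.57 (SE 0.14, adjusted p = 0.0578). As each of the 11 hearts was left out, the log2 change of Sik1 ran from 0.38 to 0.57 and its call was lost in 8 of 11, kept only without Cmpd60 replicate 68 or 71 or vehicle replicate 65. That of Hsph1 ran from −0.85 to −0.57, with the call lost in 9 of 11, kept only without Cmpd60 replicate 70 or 71. With genes detected as a covariate neither passed the edgeR test (adjusted p = 0.0583 and 0.0526), and DESeq2 called both (adjusted p = 0.00158 and 0.000688).

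The Cmpd60 effect itself was compared between tissues in 1 fit of the 34 aged libraries. Between brain and kidney, 1 of 9 genes had a p below 0.01, against 2.96% of all genes. This was Dusp1, whose effect was higher in brain by log2 0.64 (SE 0.20, adjusted p = 0.246 by edgeR's quasi-likelihood test). After adjustment for how many genes each library detected, or without vehicle kidney 46, no gene had a p below 0.01. Between brain and heart, 0 of 9 did, against 2.56% of all genes, and 0 had a p below 0.05, against 9.08%. There the difference in Arc was 0.53 (SE 0.30, edgeR adjusted p = 0.633) and that in Junb −0.27 (SE 0.27, adjusted p = 0.855). No effect on these genes was thus shown to be particular to brain.

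**Figure D3:**
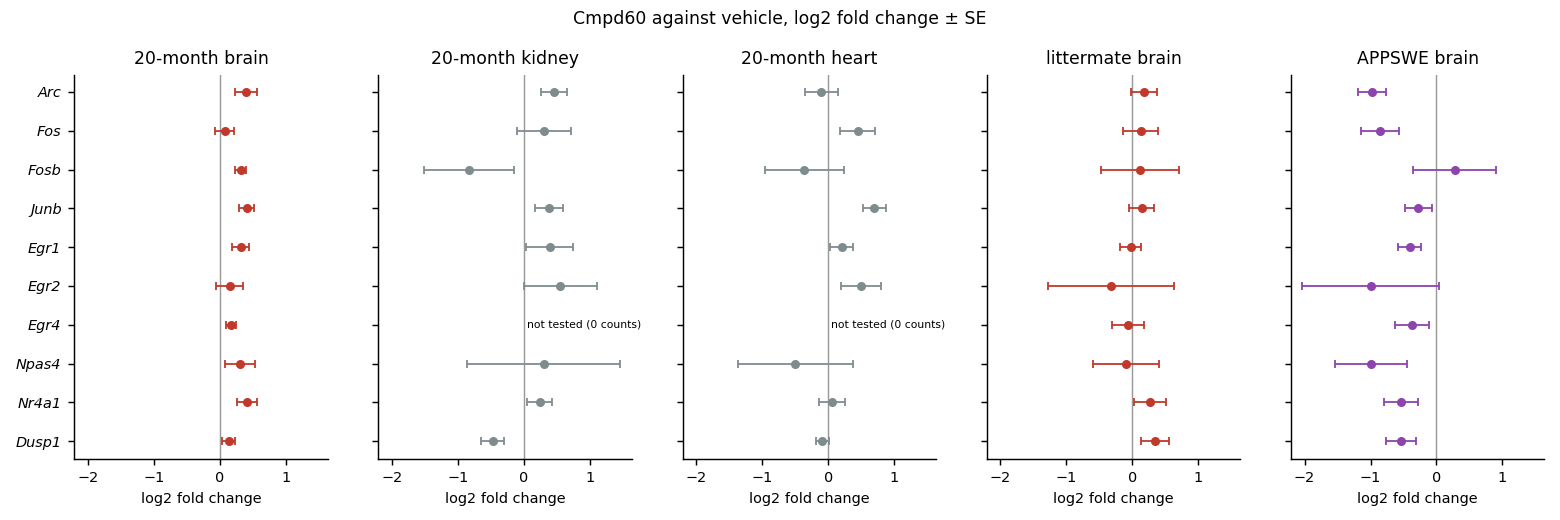
Log2 fold change of Cmpd60 against vehicle for the 10 genes, with bars of ± 1 SE from the edgeR fits, in aged brain, kidney and heart and in brains of 6 to 7 month littermates and APPSWE mice. All 10 points lie above 0 in the aged brain and 9 of 10 lie below 0 in the APPSWE brain, where they are a description and not a test.

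In littermate brains, which carry no transgene, 6 of the 10 genes were higher and 4 lower with Cmpd60 (52.8% of all genes were higher), and their median log2 fold change was 0.12, running from 0.0013 to 0.24 as single libraries were left out. No gene of the 23194 tested was called at an adjusted p below 0.05 (0%), and 0 of the 10 had a p below 0.01, against 0.384% of all, or below 0.05, against 3.67%, by edgeR. DESeq2 and limma-voom also gave 0 of the 10 with a p below 0.01. None had groups that did not overlap, against 0.509% of all. Arc was 76.6, 89.2, 83.99, 122 and 86.9 CPM with Cmpd60 (mice s152, s153, s156, s157 and s158) and 60.2, 73.1, 135, 73.1 and 65.9 CPM with vehicle (s149, s150, s151, s154 and s155). The treated brains were all above 4 of the 5 vehicle brains, and vehicle mouse s151 was the highest of all 10 (log2 0.17, SE 0.20, edgeR adjusted p = 0.999).

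Dusp1 had the largest difference among the littermates, 28.1 CPM ± 5.41 (SD, n = 5) against 22.0 ± 6.71 (n = 5; log2 0.35, SE 0.21, edgeR adjusted p = 0.999). Fos was spread from 9.85 to 30.97 CPM over the vehicle brains alone, and the 5 treated brains, from 16.7 to 24.2 CPM, lay inside that range. Fosb was at 1.63 CPM (53 counts) in Cmpd60 mouse s152 and at 0.121 CPM (3 counts) in vehicle mouse s155, while the other 8 littermate brains spanned 6.90 to 14.2 CPM. These 2 libraries also had the fewest genes detected, 15084 and 15044. Without the 5 libraries with fewer than 17000 genes detected, Egr1, Egr4 and Npas4 moved from below to above 0 (log2 0.13, 0.0705 and 0.19), none with a p below 0.05.

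In APPSWE brains, Arc was 78.2, 49.8, 96.2 and 59.4 CPM with Cmpd60 (mice s141, s143, s147 and s148) and 125, 191, 106, 148.7 and 129.6 CPM with vehicle (s140, s142, s144, s145 and s146). All 4 treated brains were below all 5 vehicle brains, which is the pattern the genes were chosen for, and the log2 fold change was −0.98 (SE 0.21). Mouse s139 had 73.0 CPM, inside the treated range and below every other vehicle brain. Counted as vehicle, as its labels say, it brought the difference to −0.86, and counted as Cmpd60 to −0.97.

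Fos followed, at 16.3, 8.97, 13.6 and 9.87 CPM with Cmpd60 and 22.4, 26.9, 23.2, 19.2 and 18.6 CPM with vehicle, in the same order of replicates. The groups did not overlap (log2 −0.86, SE 0.29), and mouse s139 had 11.9 CPM. Arc and Fos were the 2 of the 10 genes whose groups did not overlap, against 2.31% of all genes, and 9 of the 10 were lower with Cmpd60, against 45.8%. Both counts come from the contrast the genes were chosen on.

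The other genes overlapped between the APPSWE groups. Npas4 stood at 3.17 CPM ± 1.59 (SD, n = 4) with Cmpd60 and 6.33 ± 2.24 (n = 5) with vehicle (log2 −0.997, SE 0.54). Nr4a1 stood at 31.2 ± 4.40 and 45.2 ± 13.9 CPM (−0.53, SE 0.26), Dusp1 at 20.6 ± 6.16 and 29.9 ± 3.35 CPM (−0.54, SE 0.23) and Egr1 at 107 ± 25.0 and 141.7 ± 19.5 CPM (−0.41, SE 0.17). Egr4 (−0.38, SE 0.26) and Junb (−0.27, SE 0.20) differed less, and without the 5 libraries with few genes detected they were at −0.21 and −0.52.

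Egr2 had 0 counts in Cmpd60 mouse s141, a floor of 0.118 CPM for 3 counts, and from 1.12 to 2.80 CPM in the other treated brains, and its fitted −0.996 (SE 1.04) was −0.58 without that library and −3.14 with genes detected as a covariate. Fosb alone was higher, at 0.27 (SE 0.63), and ran from −0.10 without the 5 libraries with few genes detected to 0.48 with mouse s139 as vehicle. The median of the 10 was −0.54. Mouse s139 had Fosb at 1.63 CPM, below every other APPSWE brain, and Npas4 at 6.73 CPM, within the vehicle range and above the treated range. It lay below every other APPSWE vehicle brain for Arc, Fos, Nr4a1 and Egr4 as well, and above every treated brain for Npas4 and Egr2. Without the 5 libraries with few genes detected, Arc was at −1.12, Fos at −1.10 and Npas4 at −1.05. That refit has smaller APPSWE groups, without s140 and s146 in vehicle and s141 in Cmpd60.

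The same libraries give the genotype difference, which shares its mice with the comparison above. Among vehicle brains, all 10 genes were higher in APPSWE than in littermates (48% of all genes were), with a median of 0.21, and none had groups that did not overlap (0.638% of all genes). Arc was at 139.9 CPM ± 32.2 (SD, n = 5) and 81.5 ± 30.5 (n = 5; log2 0.78, SE 0.20), with littermate mouse s151 inside the APPSWE range. Dusp1 (0.44, SE 0.21), Npas4 (0.37, SE 0.50), Egr1 (0.29, SE 0.16) and Fos (0.21, SE 0.27) followed. With mouse s139 as vehicle, Arc was at 0.66, Fos at 0.0973 and Fosb below 0, at −0.0709. Without the 5 libraries with few genes detected, Arc was at 0.79, Npas4 at 0.69 and Fos at 0.41. The median of the 10 ran from 0.0805 to 0.41 as single libraries were left out. Over the same refits the lowest values of Junb, Egr2, Egr4 and Fosb fell below 0, at −0.0316, −0.0727, −0.0498 and −0.18.

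Among Cmpd60 brains, 9 of the 10 were lower in APPSWE than in littermates (50.2% of all genes were), with a median of −0.41. Fos (−0.77, SE 0.29) and Nr4a1 (−0.61, SE 0.26) were the 2 genes whose groups did not overlap, against 0.936% of all genes, and Arc was at −0.37 (SE 0.21). Without the 5 libraries with few genes detected, these were at −0.89, −0.58 and −0.49, Egr1 was at −0.35 and Fosb turned to −0.16. The Cmpd60 effect in APPSWE brains minus that in littermates was negative for 9 of 10 genes (48.6% of all genes), at −1.15 (SE 0.29) for Arc, −0.98 (SE 0.39) for Fos, −0.89 (SE 0.31) for Dusp1 and −0.80 (SE 0.36) for Nr4a1. Without the 5 libraries it was −1.28, −1.31, −1.01 and −0.90 for these genes, −1.23 for Npas4, −0.74 for both Junb and Egr1, and −0.17 for Fosb. The vehicle APPSWE brains enter the genotype difference among vehicle brains, the Cmpd60 effect in APPSWE brains and that effect minus the littermates' effect. The treated APPSWE brains enter the genotype difference among Cmpd60 brains, the Cmpd60 effect and the same difference of effects. These are therefore not separate results, and the part of each group in them was not tested.

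**Figure D4:**
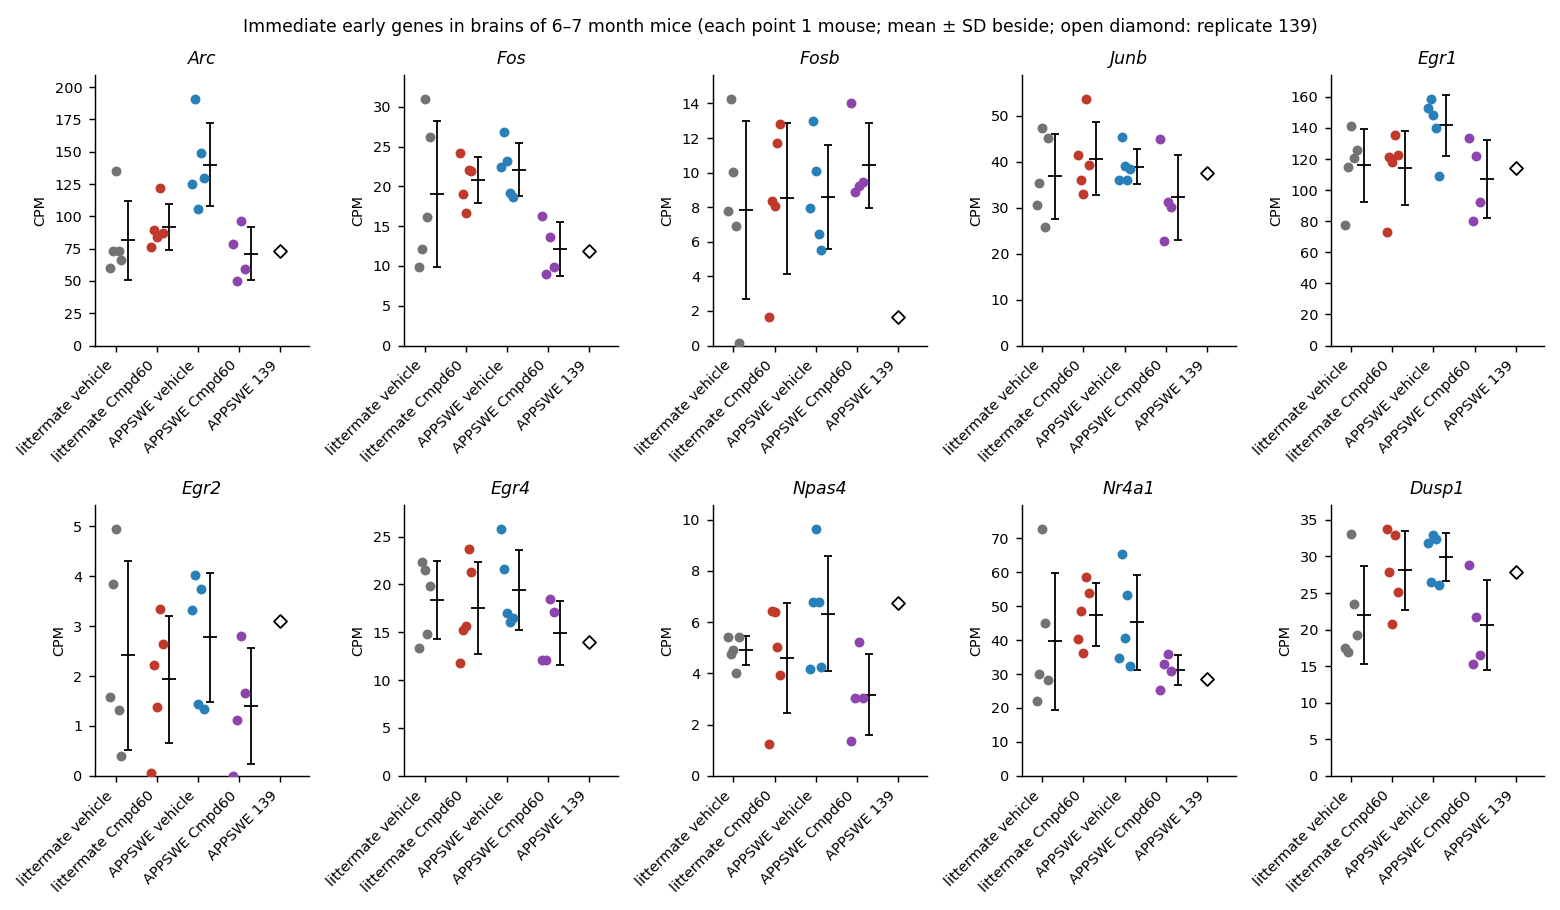
Levels of the 10 genes in brains of 6 to 7 month mice, in CPM from an axis start of 0; each point is 1 mouse, the bar beside the points is the mean ± SD of littermate vehicle (5), littermate Cmpd60 (5), APPSWE vehicle (5) and APPSWE Cmpd60 (4), and the open diamond is mouse s139. For Arc and Fos the APPSWE Cmpd60 points lie below all APPSWE vehicle points, and for Fosb and Egr2 single libraries drop to or near 0.

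Other lists are given for the APPSWE brain as a description too. Of 22 other early response genes, 13 were lower with Cmpd60 (median log2 −0.13), and of 16 later activity-regulated genes 10 were lower (median −0.04). The 8 heat shock genes were all lower (median −0.38). Choroid plexus markers were lower in 6 of 6 (median −0.51), with a summed level of 367 to 570 CPM with Cmpd60 and 394 to 1568 CPM with vehicle, and oligodendrocyte markers in 6 of 6 (median −0.18; 5640 to 7289 against 6618 to 7419 CPM). Thalamus and brainstem markers were higher in 6 of 8 (median 0.21; 557 to 646 against 436 to 601 CPM). Cerebellum (median 0.04), cortex and hippocampus (0.08) and neuron markers (0.05) were near 0. Genes detected were 16402 to 23402 with Cmpd60 and 15555 to 20277 with vehicle. The part of these in the levels of the 10 genes was not tested.

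The 10 genes varied together between mice of the same group. After each group's mean was subtracted, the 45 pairs of genes had a median Pearson correlation of 0.587 (Spearman 0.559) over the 12 aged brains, and 44 of the 45 were positive. The genes of a point share its library and depth, so the values are a description. Arc was the gene most like the rest (median 0.846 with the other 9), followed by Nr4a1 (0.767) and Junb (0.729), while Npas4 (0.258), Fosb (0.382) and Egr4 (0.447) were least like them. Fosb, which had the lowest p for Cmpd60, was thus among the genes that followed the others least, and its SD within groups was the smallest of the 10 (0.13 on the log2 scale, against 0.37 for Arc).

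A few mice carried part of the shared pattern. The mean of the 10 genes was highest in Cmpd60 replicates 34 and 33 and vehicle replicate 29 (0.39, 0.28 and 0.32 above their group's mean on the log2 scale) and lowest in Cmpd60 replicate 38 (−0.28). Without replicates 34 and 33, the 2 whose mean level before subtraction was farthest from the median, the median correlation was 0.484, with 36 of 45 pairs positive. Without 34 and 29, the 2 farthest after it, the median was 0.471, with 35 of 45 positive. Over the 19 brains of 6 to 7 months the median was 0.36 (37 of 45 positive), and without mice s152 and s155, the 2 farthest before subtraction, it was 0.434. Without s152 and s151, the 2 farthest after it, it was 0.221 (31 of 45 positive). In that cohort the mean of the 10 genes followed the number of genes detected (Pearson 0.711, Spearman 0.586). In the aged brains it did not rise with it (Pearson −0.385, Spearman −0.35). With sequencing depth within groups, the mean of the 10 had a Pearson correlation of −0.555 in the aged brains and −0.065 in the younger. The part of depth or genes detected in the shared pattern was not tested. In kidney and heart the median over 36 pairs was 0.339 and 0.264, and without the 2 libraries farthest before subtraction 0.078 and 0.069.

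**Figure D5:**
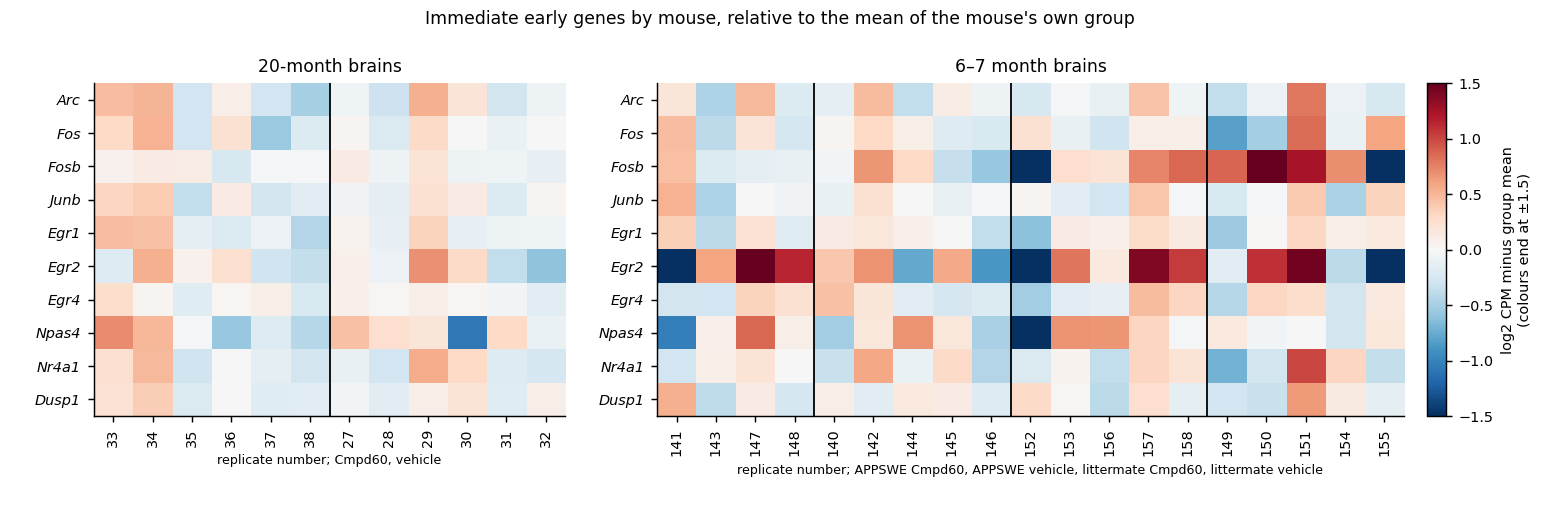
Log2 CPM of each of the 10 genes (rows) in each mouse (columns, by number) minus the mean of the mouse's own group, for 12 brains of 20 months and 19 of 6 to 7 months; red is above and blue below the group's mean, and black lines part the groups. Columns 33, 34, 29 and s151 are red for most genes, and Egr2 and Fosb are deep blue in single columns such as s152 and s155.

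Of 14805 other genes with at least 1 CPM in both brain cohorts, the 5 whose levels most followed the mean of the 10 in both were Dusp6, Acta1, Dzip1, Ephb3 and Npsr1, ranked by the smaller of 2 correlations. Dusp6, a phosphatase of ERK that is itself induced by ERK signalling, had a Pearson correlation of 0.797 over the 12 aged brains and 0.736 over the 19 younger ones. The others had 0.733 and 0.737 (Acta1), 0.727 and 0.734 (Dzip1), 0.806 and 0.727 (Ephb3, a receptor for ephrins) and 0.799 and 0.709 (Npsr1). By Spearman the 5 ran from 0.608 to 0.769 in the aged brains and from 0.454 (Npsr1) and 0.525 (Acta1) to 0.726 (Dzip1) in the younger. In the younger cohort the mean of the 10 itself followed genes detected (Pearson 0.711), and the part of this in the ranking was not tested. None of the 5 had a p below 0.05 for Cmpd60 in aged or littermate brain, and Dusp6 was at log2 0.15 (SE 0.10) and 0.29 (SE 0.20).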

How the data were processed

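RNA from brain, kidney and heart of mice was sequenced after oligo-dT selection with a directional kit. Per the submitters' processing notes and the study's methods, the authors used FastQC, trimmed reads with Trimmomatic 0.32, aligned them with HISAT2 2.1.0 and counted them with HTSeq 0.11.0 by strand. The deposited values are raw read counts per Ensembl gene, 1 file per library. The authors re-annotated genes with an Ensembl release through biomaRt. The genome build and the annotation used for counting are not given in the sources used here. The 5 summary lines of each file (15.4% to 22.1% of reads) were left out. Symbols were matched for 32651 of 54232 identifiers.

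A gene was kept where 3 or more of the fitted libraries each held over 2 reads of it. Libraries were scaled by TMM and tested with edgeR 4.0.16 (limma 3.58.1, R 4.3.3) by its quasi-likelihood test, with Benjamini-Hochberg adjustment over all genes tested. Brain, kidney and heart of aged mice were fitted separately for the Cmpd60 effect, and together for vehicle levels and for differences of the effect between tissues, each library as a separate mouse, since the labels do not link tissues of 1 mouse. The 19 brains of 6 to 7 months were fitted together. Standard errors are the absolute log2 fold change divided by the square root of F. CPM values carry no gene length, so levels are compared between samples and not between genes. Counting error is small beside the spread between mice except at a few counts, and floors of 3 counts cover counting error only. Scripts were tested on simulated data.

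The 10 genes and all gene lists were chosen with earlier results of these data known. All 10 genes are named. From other lists, up to 10 genes with a p below 0.01 are named per tested comparison, and 5 genes by likeness. For comparisons that involve the APPSWE mice no p is given. DESeq2 1.42.0, limma-voom, DESeq2's size factors, 2 other filters on low counts, genes detected as a covariate, leaving out each library, both placings of mouse s139 and a fit of only the groups compared were tried as alternatives. Leaving out the 5 libraries with fewer than 17000 genes detected and the 2 libraries farthest in the centred mean of the genes were chosen after seeing the data. Promoter windows come from RefSeq (GRCm38.p6), and motifs were searched on both strands.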

Additional observations from a re-analysis of the deposited data

Results flagged for a closer look

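In 9 of 96 groups of a gene's values in 1 tissue and treatment, a single mouse stood far from the others of its group by Dixon's gap test, where chance flags about 1 in 20 groups. In the aged brain, Egr1 was 161 CPM in vehicle replicate 29 (next 133). In the aged kidney, Egr2 was 2.39 CPM in vehicle replicate 45 (next 1.18) and Nr4a1 8.45 CPM in Cmpd60 replicate 55 (next 5.99). In the aged heart, Fos was 4.98 CPM in vehicle replicate 62 (next 2.48) and Fosb 1.12 CPM in Cmpd60 replicate 69 (next 0.373). Among littermate brains, Arc was 135 CPM in vehicle mouse s151 (next 73.1) and 122 CPM in Cmpd60 mouse s157 (next 89.2), and Egr1 was lowest, at 73.2 CPM, in Cmpd60 mouse s152 (next 118). In APPSWE brains, Fosb was 14.1 CPM in Cmpd60 mouse s141 (next 9.47). Mice s141 and s152 are among the 5 libraries with few genes detected.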

How the results depend on the processing

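No paired analysis was possible because the groups share no replicate numbers. In the aged brain, the number of the 10 genes with a p below 0.01, which was 2, became 5 without a filter on low counts and 4 with genes detected as a covariate, and ran from 2 to 5 as each library was left out. The number past the adjusted threshold was 2 by DESeq2 and 0 to 1 as each library was left out. In the aged heart, the number past the adjusted threshold was 1 by DESeq2 and 1 without a filter, and 0 to 1 as each library was left out, and the number with a p below 0.01 ran from 1 to 2 (2 without vehicle replicate 62). In kidney the number with a p below 0.01 ran from 0 to 1, and for brain minus kidney from 0 to 1 (0 with the covariate). Median correlations in the aged and younger brains were 0.484 and 0.434 without the 2 libraries farthest in mean level of the genes, and 0.471 and 0.221 without the 2 farthest after each group's mean was subtracted, a choice made after seeing the data. The causes were not tested.

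None of the 10 genes passed the adjusted threshold for Cmpd60 in the main edgeR fits. The directions that turned were thus all of differences not called. With the covariate, Nr4a1 in heart was at log2 −0.0343 and Fosb in littermates at −0.25. Without the 5 libraries with few genes detected, littermate Egr1, Egr4 and Npas4 were at 0.13, 0.0705 and 0.19. As each library was left out, Fos in the aged brain ran from −0.0365 to 0.17, Npas4 in kidney from −0.18 to 0.97, and in heart Arc from −0.31 to 0.0693, Egr1 from −0.015 to 0.29 and Nr4a1 from −0.0692 to 0.18. In littermates Egr1 ran from −0.14 to 0.10, Egr2 from −0.62 to 0.11, Egr4 from −0.20 to 0.0461, Fos from −0.0395 to 0.37, Fosb from −0.19 to 0.45 and Npas4 from −0.25 to 0.15. The median of the 10 genes in the aged brain stayed within 0.20 to 0.37, in littermates within 0.0013 to 0.24 and in the APPSWE brain within −0.71 to −0.47.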

Other observations

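In the aged kidney, 20 of 22 other early response genes were higher with Cmpd60 (median log2 0.23), against 50% of all genes. None had a p below 0.01 by edgeR's quasi-likelihood test. Egr3, in this list, was low in kidney, with a mean of 0.743 CPM with Cmpd60 and 0.418 with vehicle. Of the related lists there, Dlg4, a scaffold of the postsynaptic density, was at 0.60 (SE 0.13, edgeR adjusted p = 0.0792), the stress-response factor Atf4 at 0.38 (SE 0.10, adjusted p = 0.126) and the heat shock gene Hspa1a at 0.44 (SE 0.12, adjusted p = 0.16). Dlg4 was at 0.53 (SE 0.16, edgeR adjusted p = 0.126) in heart as well, and Mef2d, higher in the aged brain, was at −0.19 (SE 0.06, adjusted p = 0.13) there. Also in heart, Nab1 was at 0.22 (SE 0.07) and Camk4 at −2.81 (SE 0.93), the latter at under 1 CPM in both groups. Striatum markers were lower in 8 of 8 with Cmpd60 in littermates (median −0.23) and higher in 6 of 8 in APPSWE brains (median 0.19). In littermates no gene of the related lists had a p below 0.01.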
